A study of Mus musculus with 9 samples.

Results

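The insulin-like growth factor (IGF) genes of SMO-M2-driven mouse brain tumours were described across 9 bulk RNA-seq libraries: the ligand genes Igf1 and Igf2, the receptor genes Igf1r and Igf2r, the adaptor gene Irs1, and the binding protein genes Igfbp2, Igfbp3, Igfbp4, Igfbp5 and Igfbp7. These 10 genes were chosen by symbol. All 10 have a row among the 17482 genes of the deposited table, and all 10 passed the filter on low values that left 15251 genes for testing. The tissue is labelled MB and was taken at postnatal day 8 or 9. SG (n = 3) has the genotype fSMO-M2;hGFAPcre, a conditional, constitutively active form of the Hedgehog signal transducer Smoothened switched on by the hGFAPcre driver. YSGr (n = 3, rescued) and YSGnr (n = 3, non-rescued) share the genotype fYap1;fSMO-M2;hGFAPcre, which adds a floxed allele of Yap1, the transcriptional coactivator of the Hippo pathway. All 3 groups thus carry SMO-M2 and Cre, and none is tumour-free tissue. The hGFAPcre transgene is known to act in neural progenitors of many lineages, so recombination is not limited to the granule cell lineage. What rescue refers to, the sex of the animals and whether each library stands for its own animal are not stated in the labels, and p-values therefore measure the spread between libraries, part of which may be technical.

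As background, IGF1 and IGF2 are secreted peptides that activate the receptor tyrosine kinase IGF1R. The activated receptor phosphorylates docking proteins such as IRS1, which recruit PI3K and lead to AKT and mTOR activity. IGF2R carries no kinase signal of this kind and delivers IGF2 to lysosomes, while the binding proteins hold the ligands in the extracellular space and can restrain or prolong their action. In cerebellar granule neuron progenitors, the lineage from which Hedgehog-driven medulloblastoma arises, IGF signalling is known to cooperate with Hedgehog signalling in proliferation.

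The libraries were not alike in quality or make-up. The reads back-calculated from the table came to 17.3 to 29.2 M (M, megareads) for 8 libraries. YSGnr replicate 1 had the fewest, 9.66 M, with an effective size of 3.92 M after scaling, so low genes are least precise there. Granule progenitor markers (10 genes) summed to 2941 to 3008 CPM (a gene's reads scaled by the size of the library) in SG and 2798 to 3185 in YSGnr, and to 1368, 1065 and 2924 in YSGr replicates 1, 2 and 3. Each marker was above the table's floor of -3.52 log2 CPM in every library. So were the markers of Purkinje cells, oligodendrocytes and microglia, so this does not identify the tissue. YSGr replicate 3 stood apart from replicates 1 and 2 in the granule progenitor markers and in many other genes. Differences from the SG mean followed transcript length across 14603 genes with a Spearman rho of -0.41 in YSGr replicate 3 and of -0.52 and -0.50 in YSGnr replicates 2 and 3, against -0.11 to 0.17 in the other 6 libraries. Mean Yap1 was 5.06 ± 0.05 log2 CPM for SG, 3.51 ± 0.84 for YSGr, and for YSGnr it was 2.45 ± 0.41 (SD over 3 libraries). Replicates 1, 2 and 3 stood at 4.44, 3.31 and 2.79 in YSGr and at 2.79, 2.57 and 1.99 in YSGnr. Yap1 reads were thus left in every library with floxed Yap1, most in YSGr replicate 1. Mean Yap1 fell by 1.55 log2 units in YSGr (limma, adjusted p = 0.0327) and by 2.61 in YSGnr (adjusted p = 0.0131). High Xist and the floor value for the Y-linked Ddx3y marked all YSGr libraries and YSGnr replicate 1, and the reverse all SG libraries and YSGnr replicates 2 and 3, so that YSGr and SG differ in these transcripts throughout while YSGnr holds both patterns. A term for high Xist can thus be fitted only from YSGnr replicate 1 against replicates 2 and 3, and what it gives is printed beside the called members and Igfbp2. In bulk tissue, fewer cells of a type and less RNA per cell cannot be told apart either.

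The upstream sequences of the genes with a called difference, Irs1 and Igfbp5, are shown because YSGr and YSGnr carry floxed Yap1, whose protein acts through TEAD factors on DNA. RefSeq promoter windows on GRCm38.p6 were found for all 10 genes, 14 windows in all, and the 250 bases before each annotated start were searched on both strands for the TEAD core GGAATG (reverse CATTCC) and the GLI core GACCACCCA (reverse TGGGTGGTC), which do not overlap each other in any of them. The TEAD core occurred in 5 of the 14 windows, in 3 of the 10 genes: 1 window each of Irs1 and Igfbp5 and 3 of the 4 windows of Igf2. Among all 32851 windows of the same length 12.64% held it, and 14.4% of all genes had it in a window. The GLI core occurred in none of the 14 and in 0.23% of all windows. A match describes letters and is not evidence of binding. Both are given on the minus strand, 5′ to 3′, with the TEAD core in capitals, and that of Igfbp5 was shortened to the part outside the GENCODE gene.
Igfbp5 upstream, chr1:72874885-72875115: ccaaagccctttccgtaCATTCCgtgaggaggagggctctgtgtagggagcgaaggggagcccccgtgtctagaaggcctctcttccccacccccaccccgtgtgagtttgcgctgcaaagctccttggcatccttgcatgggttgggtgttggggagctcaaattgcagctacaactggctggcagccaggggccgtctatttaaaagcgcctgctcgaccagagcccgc
Irs1 upstream, chr1:82291440-82291689: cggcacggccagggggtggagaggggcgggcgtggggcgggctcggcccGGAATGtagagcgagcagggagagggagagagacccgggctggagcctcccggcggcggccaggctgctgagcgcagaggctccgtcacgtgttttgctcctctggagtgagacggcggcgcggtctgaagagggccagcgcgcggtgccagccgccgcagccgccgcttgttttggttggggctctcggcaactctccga
The core began 233 bases before the RefSeq start of Igfbp5 and 201 bases before that of Irs1.

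Levels were first set in order within the SG tumours, per kilobase of each gene's longest transcript. Igfbp2 was highest at 6.01 ± 0.04 log2 CPM per kb, followed by Igf2 at 5.28 ± 0.12, Irs1 at 5.08 ± 0.10, Igfbp7 at 4.99 ± 0.13 and Igfbp5 at 4.10 ± 0.06. Lower levels per kb were those of Igfbp4 (3.57 ± 0.12), Igfbp3 (2.74 ± 0.03), Igf1r (2.64 ± 0.04), Igf2r (1.99 ± 0.09) and Igf1 (1.39 ± 0.06; SD, n = 3 throughout). Only Irs1 and Igfbp7 overlapped among neighbours in this order. Igf2 was thus the more abundant ligand transcript in these tumours, and Igfbp2 had the highest level per kb of the 5 binding protein genes among the 10. Igfbp2 stayed highest and Igf1 lowest in the mean of every group, while Irs1 moved from rank 3 in SG to rank 6 in YSGr and rank 4 in YSGnr, and Igfbp5 from rank 5 to rank 3 in YSGr and rank 5 in YSGnr. Most of these ranks were not separated. In YSGr the ranges of Igfbp2 and Igf2, Igf2 and Igfbp5, Igfbp5 and Igfbp7, and Igfbp4 and Irs1 overlapped, and in YSGnr that of Irs1 overlapped its neighbours Igf2 and Igfbp5.

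**Figure D1:**
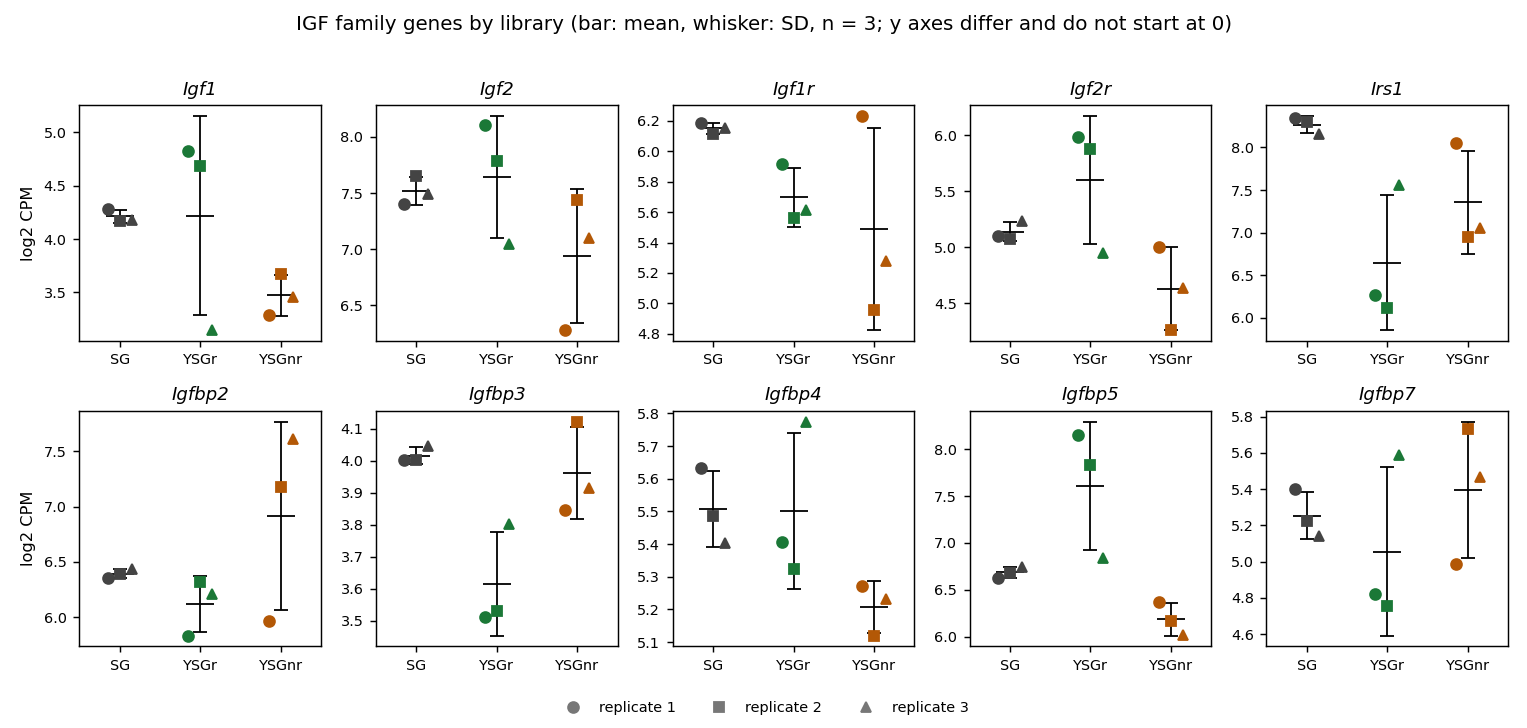
Level of each gene in log2 CPM (y axes, scaled per panel) in the 9 libraries by group (x axis); symbols mark replicate numbers, horizontal bars the mean and whiskers the SD (n = 3). YSGr replicates 1 and 2 lie far below SG for Irs1 and far above SG for Igfbp5, and YSGr replicate 3 lies closer to SG for both genes.

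YSGr was set against SG to see what differs in SMO-M2 tissue when floxed Yap1 is present and the sample counts as rescued. The same libraries differ throughout in Xist and Ddx3y. What goes with these transcripts cannot be told apart here from what goes with genotype or rescue. Irs1 was the member that fell, to a level 3.07-fold lower, and the other 9 were not called. A gene was called at an adjusted p below 0.05 (limma, Benjamini-Hochberg over 15251 genes), which 10.5% of all tested genes reached in this comparison, 6.58% in the higher and 3.97% in the lower direction, so 1 of 10 is close to the background share. An unadjusted p below 0.05 was reached by 3 of the 10 and by 26.1% of all tested genes. The groups did not overlap for 5 of the 10 genes, Igfbp5 above SG and Igf1r, Irs1, Igfbp2 and Igfbp3 below, against 36.8% of all tested genes (19.5% above and 17.3% below). The median log2 fold change of the 10 was -0.10, against -0.02 over all tested genes.

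YSGnr was set against SG for the same question in samples that count as non-rescued. None of the 10 genes was called (limma; 2 had an unadjusted p below 0.05, Igf1r and Irs1, and limma voom on back-calculated reads called none), where 3.36% of all tested genes were called, 1.19% higher and 2.17% lower, and 25.6% had an unadjusted p below 0.05. Of the 10 values 8 lay below SG and the median was -0.50, against -0.01 over all tested genes. The groups did not overlap for Igf1, Igf2r, Igfbp4, Igfbp5 and Irs1, all lower in YSGnr, against 38.2% of tested genes in either direction and 21.3% in the lower one. YSGnr replicates 2 and 3, but not replicate 1, had the length trend given above. With a length and GC trend removed from every library, the difference of Igf1 went from -0.74 to -0.20 log2 units, that of Igf2r from -0.51 to -0.09 and that of Igf1r from -0.66 to -0.15. The part of transcript length in these values was not tested.

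The comparison of YSGr with YSGnr sets the 2 groups of the same genotype side by side. Igfbp5 was 2.68-fold higher in YSGr and was the only one of the 10 genes called, where 5.97% of all tested genes were called and 5.09% in the higher direction. The groups did not overlap for Igfbp4 and Igfbp5, higher in YSGr, and Igfbp3, lower in YSGr, against 22.5% of all tested genes (15.0% higher and 7.46% lower). An unadjusted p below 0.05 was reached by 4 of the 10 and by 33.9% of all tested genes. The median of the 10 was 0.25, against 0.01 over all tested genes. The comparisons share libraries, so their values for a gene are not independent of each other.

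**Figure D2:**
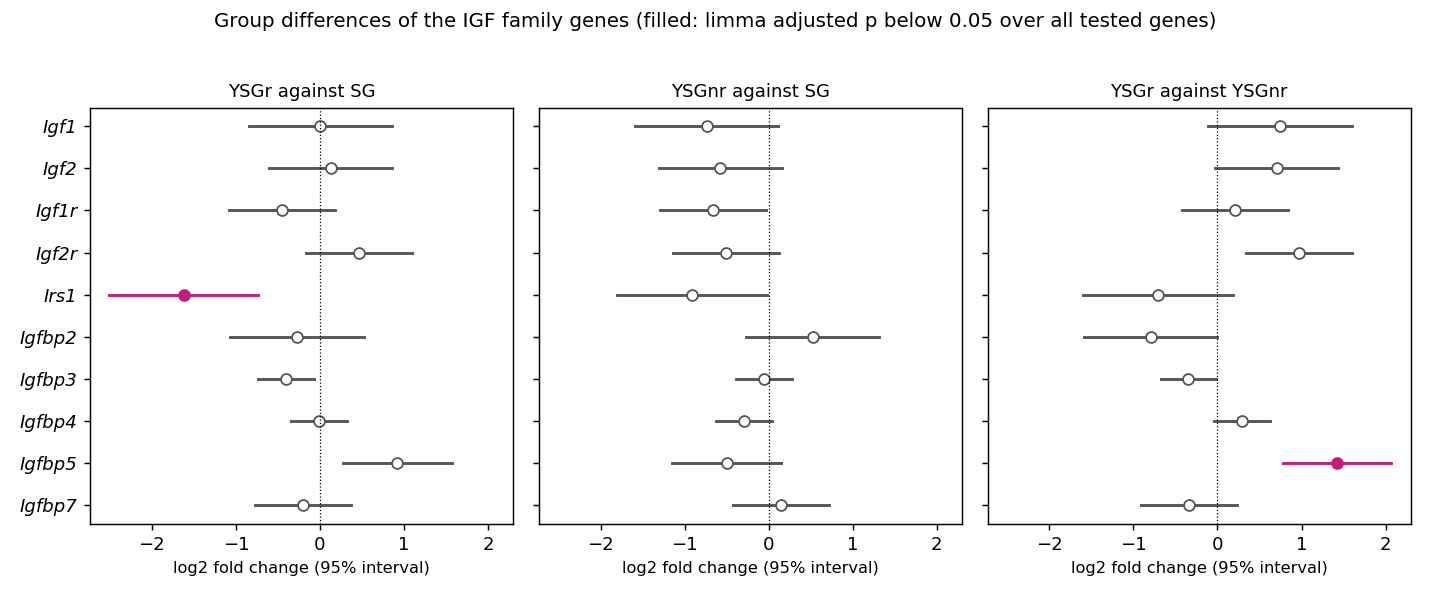
Log2 fold change (x axes) of each of the 10 genes (rows) in the 3 comparisons (panels), with 95% confidence intervals from limma; filled points were called at an adjusted p below 0.05. The filled points are Irs1 in YSGr against SG, at -1.62, and Igfbp5 in YSGr against YSGnr, at 1.42.

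Igf2 (ENSMUSG00000048583.16, chromosome 7, 142650766 to 142666816, GRCm38), the growth factor gene expressed from the paternal allele in most mouse tissues, stood at 7.41, 7.65 and 7.49 log2 CPM in SG, at 8.10, 7.78 and 7.05 in YSGr and at 6.28, 7.44 and 7.10 in YSGnr. YSGr replicates 1 and 2 were above and replicate 3 below every SG library, and YSGnr replicate 1 was the lowest of all 9. The difference from SG was 0.13 log2 units in YSGr (95% interval -0.61 to 0.86, adjusted p = 0.855) and -0.58 in YSGnr (-1.31 to 0.15, adjusted p = 0.28), and YSGr differed from YSGnr by 0.70 (-0.03 to 1.44, adjusted p = 0.159). These intervals leave room for changes of over 1.5-fold in either direction in YSGr, so equal levels were not shown. Markers of meningeal fibroblasts, a known site of Igf2 expression, moved in part with these values: the 10 genes summed to 315 to 353 CPM in SG, 367 to 511 in YSGr and 210 to 295 in YSGnr, highest in YSGr replicate 1 and lowest in YSGnr replicate 1, as for Igf2. Of these markers 2 of 10 rose in YSGr against SG, none was called in YSGnr and all were above the floor of the table; their part in the values of Igf2 was not tested.

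Igf1 (chromosome 10, 87858265 to 87937042), the other ligand gene, stood at 4.29, 4.17 and 4.18 log2 CPM in SG and at 4.83, 4.68 and 3.15 in YSGr. The YSGnr libraries, at 3.29, 3.67 and 3.46, were all below SG and all above YSGr replicate 3, the lowest of the 9. The difference from SG was 0.01 in YSGr (SE 0.38, adjusted p = 0.995), an average over libraries on both sides of SG, and -0.74 in YSGnr (SE 0.38, adjusted p = 0.246). Igf1 has a 7.05 kb longest transcript, and the 2 YSGnr libraries and 1 YSGr library with the steepest length trend were among the 4 with the least Igf1. YSGnr replicate 1, with a rho of -0.07, was as low. Microglia, which are known to express Igf1, were followed by 10 markers that summed to 270 to 283 CPM in SG, 208 to 296 in YSGr and 176 to 438 in YSGnr. The sum was highest in YSGnr replicates 2 and 3, where Igf1 was low, but the list was split. C1qa was at 6.09 and 6.01 log2 CPM in these 2 libraries, against 4.40 to 4.61 in SG. Cx3cr1 was at 4.92 and 4.29, against 5.18 to 5.25 in SG. Called or not, 6 of the 10 markers lay above SG in YSGnr and 4 below. None of the 10 markers was called in any of the comparisons. Their part in the values of Igf1 was not tested.

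Igf1r (chromosome 7, 67952827 to 68233668), the signalling receptor, stood at 6.19, 6.11 and 6.15 log2 CPM in SG, at 5.92, 5.56 and 5.61 in YSGr and at 6.23, 4.95 and 5.28 in YSGnr. All YSGr libraries were below SG, and YSGnr replicate 1 was above it while replicates 2 and 3 were the lowest of all. The difference was -0.45 in YSGr (SE 0.28, adjusted p = 0.352) and -0.66 in YSGnr (SE 0.28, adjusted p = 0.18). Its longest transcript, 11.41 kb, is the longest among the 10 genes, and with the length and GC trend removed the difference between YSGr and YSGnr turned from 0.21 to -0.32 (adjusted p = 0.224), neither of them called.

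Igf2r (chromosome 17, 12682406 to 12769664), the clearance receptor, stood at 5.10, 5.07 and 5.23 log2 CPM in SG, at 5.98, 5.87 and 4.94 in YSGr and at 4.9998, 4.26 and 4.63 in YSGnr. YSGr replicates 1 and 2 were above every SG library, and YSGr replicate 3 lay with YSGnr. It differed by 0.97 log2 units between YSGr and YSGnr (SE 0.28, adjusted p = 0.0652), short of a call, and by 0.46 (adjusted p = 0.341) and -0.51 (adjusted p = 0.272) from SG. This difference reached a call when YSGnr replicate 1 was dropped (1.15, adjusted p = 0.0289) or YSGr replicate 3 was dropped (1.30, adjusted p = 0.00159). Without YSGnr replicate 1 the 2 groups differ throughout in Xist and Ddx3y. After removal of the length and GC trend the difference between YSGr and YSGnr was 0.51 (adjusted p = 0.073). The antisense gene Airn overlaps Igf2r, and no label or header states whether counting used strand. Airn stood at 1.19 to 1.91 log2 CPM in the 9 libraries, below Igf2r in each of them.

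Irs1 (ENSMUSG00000055980.2, chromosome 1, 82233101 to 82291416) encodes a docking protein that links IGF1R and the insulin receptor to PI3K. It stood at 8.35, 8.30 and 8.16 log2 CPM in SG, at 6.27, 6.12 and 7.56 in YSGr and at 8.06, 6.95 and 7.05 in YSGnr. All 6 libraries with floxed Yap1 were below all 3 SG libraries, YSGr replicates 1 and 2 by most and YSGnr replicate 1 by least. Irs1 fell by 1.62 log2 units in YSGr (SE 0.39, 95% interval -2.51 to -0.73, adjusted p = 0.0328). The SE rests on a spread shared by all groups, whose SDs were 0.10 in SG, 0.79 in YSGr and 0.61 in YSGnr. In YSGnr the difference was -0.91 (SE 0.39, adjusted p = 0.185), and YSGr and YSGnr differed by -0.71 (SE 0.39, adjusted p = 0.224). This call did not hold without SG replicate 1, 2 or 3 (adjusted p = 0.119, 0.112 and 0.0937) and without YSGr replicate 1 or 2 (adjusted p = 0.127 and 0.131). It held at 18 of the 23 other processing settings. With the term for high Xist, which rests on YSGnr replicate 1, the difference between YSGr and SG was -2.67. It reached -2.07 when YSGr replicate 3 was dropped (adjusted p = 0.00142).

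Granule progenitor markers moved with Irs1 inside YSGr, where replicates 1 and 2 had 1368 and 1065 CPM in the 10-gene sum and replicate 3 had 2924, near the SG range. Of the 10 markers 3 fell in YSGr against SG and none was called in YSGnr. Their part in the fall of Irs1 was not tested. In YSGr replicate 3 and YSGnr replicates 2 and 3 the marker sum was 2924, 2798 and 3185 CPM, close to the SG range, while Irs1 was below every SG library. With the length and GC trend removed, Irs1 still fell in YSGr, by 1.64 (adjusted p = 0.0335), and its difference in YSGnr was -0.47 (adjusted p = 0.509). The predicted gene Gm9747 overlaps Irs1 on the opposite strand and stood at 2.70 to 5.38 log2 CPM, below Irs1 in each library.

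Igfbp5 (ENSMUSG00000026185.8, chromosome 1, 72857932 to 72874884) encodes a binding protein that also attaches to extracellular matrix. It stood at 6.63, 6.68 and 6.75 log2 CPM in SG, at 8.15, 7.83 and 6.84 in YSGr and at 6.37, 6.16 and 6.02 in YSGnr. The 3 groups did not overlap, with YSGr highest and YSGnr lowest, although YSGr replicate 3 was only just above SG. Igfbp5 was higher in YSGr than in YSGnr by 1.42 log2 units (SE 0.29, 95% interval 0.78 to 2.07, adjusted p = 0.0354). The SD over 3 libraries was 0.06 in SG, 0.68 in YSGr and 0.18 in YSGnr. The fit shares 1 spread over all 9 libraries, so the tight SG group narrows this interval though it is not compared here. Against SG the difference was 0.92 in YSGr (SE 0.29, adjusted p = 0.0722) and -0.50 in YSGnr (SE 0.29, adjusted p = 0.289). The call between YSGr and YSGnr was lost without SG replicate 1, 2 or 3 (adjusted p = 0.0756, 0.073 and 0.0741), YSGr replicate 1 or 2 (0.155 and 0.168) or YSGnr replicate 2 or 3 (0.11 and 0.119), and with the 6 libraries of these groups alone (0.16) or median scaling (0.0507). With the term for high Xist the difference was 1.24 (adjusted p = 0.144). Without YSGr replicate 3 the difference from SG was called, at 1.31 log2 units (adjusted p = 0.000553).

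Neuronal markers differed in the same direction as Igfbp5 between YSGr and YSGnr, but not throughout between YSGnr and SG. The 7 Purkinje cell markers summed to 765 to 839 CPM in SG, 1227 to 2081 in YSGr and 467 to 937 in YSGnr, and 6 of the 7 were higher in YSGr than in YSGnr by the test. The 7 granule neuron markers summed to 1308 to 1502, 1652 to 2961 and 1429 to 1596 CPM, and 5 of the 7 were higher in YSGr than in YSGnr. The 5 markers of GABAergic interneurons, of which 3 were called higher, summed to 243 to 253, 258 to 432 and 206 to 248 CPM. In YSGnr against SG, where Igfbp5 was at -0.50, 4 of the 7 granule neuron markers and 2 of the 7 Purkinje cell markers were called higher. None of the 3 lists had a marker called lower. Called or not, 1 of 7 granule neuron, 4 of 7 Purkinje cell and 4 of 5 interneuron markers lay below SG there. The list medians were 1.45, -0.23 and -0.64. All genes of these lists were above the floor in all libraries, YSGr replicate 3 was the lowest of its group in all 3 sums, and their part in the difference of Igfbp5 was not tested.

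Igfbp2 (chromosome 1, 72824503 to 72852474), whose protein is abundant in the brain and in cerebrospinal fluid, lies 5.5 kb from Igfbp5 with no protein-coding gene between them, and the 3′ ends of the pair face each other. It stood at 6.35, 6.39 and 6.43 log2 CPM in SG, at 5.83, 6.32 and 6.21 in YSGr and at 5.96, 7.18 and 7.61 in YSGnr. YSGnr replicates 2 and 3 were the highest of all libraries for Igfbp2 and the lowest for Igfbp5, and YSGr replicate 1 was the lowest for Igfbp2 and the highest for Igfbp5. Igfbp2 was not called in any comparison (adjusted p = 0.691, 0.362 and 0.147), at -0.27 and 0.52 log2 units from SG in YSGr and YSGnr and -0.79 between YSGr and YSGnr. Without YSGnr replicate 1 the difference of YSGnr from SG was 1.00 (adjusted p = 0.0133). With the term for high Xist, which rests on YSGnr replicate 1 against replicates 2 and 3, the difference of YSGr from SG turned to 1.16. YSGnr replicate 1 differed from replicates 2 and 3 in effective size and length trend as well.

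Choroid plexus markers, which mark an epithelium known to secrete both IGFBP2 and IGF2, differed widely between libraries. The 8 genes summed to 274 to 688 CPM in SG, to 1273 and 1653 CPM in YSGnr replicates 2 and 3 and 107 in replicate 1, and to 28.1, 1012 and 81.7 CPM in YSGr replicates 1, 2 and 3. The sum was thus highest in the libraries with the most Igfbp2 and lowest in that with the least. YSGr replicate 2 did not follow this order, with a sum above every SG library and Igfbp2, at 6.32 log2 CPM, below every SG library. Ttr made up most of the high sums, at 9.86 log2 CPM in YSGr replicate 2 and 10.13 and 10.51 in YSGnr replicates 2 and 3. Of the 8 markers 1 fell in YSGr against SG and none was called in the other comparisons. Kcne2 was at the table's floor in 1 or more libraries, and the part of this epithelium in the Igfbp2 values was not tested. Igf2 did not follow the sum, being highest in YSGr replicate 1, where the sum was lowest.

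Igfbp3 (chromosome 11, 7206086 to 7213923), the gene of the main carrier of circulating IGFs, stood at 4.001, 4.002 and 4.05 log2 CPM in SG, at 3.51, 3.53 and 3.80 in YSGr and at 3.85, 4.12 and 3.91 in YSGnr. All 3 YSGr libraries were below all others, by a small margin for replicate 3. The difference from SG was -0.40 log2 units in YSGr (SE 0.15, adjusted p = 0.117) and -0.06 in YSGnr (SE 0.15, adjusted p = 0.83), and YSGr differed from YSGnr by -0.35 (adjusted p = 0.135). Without YSGr replicate 3 (adjusted p = 0.0275), and after removal of the length and GC trend (adjusted p = 0.0351), the difference between YSGr and SG was called, at -0.50 and -0.47.

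Igfbp4 (chromosome 11, 99041244 to 99054392), whose protein restrains IGF action until it is cleaved, and Igfbp7 (chromosome 5, 77349240 to 77408041), a matrix protein gene of blood vessels with weak IGF binding, were not called in any comparison. Igfbp4 stood at 5.63, 5.48 and 5.40 log2 CPM in SG, at 5.41, 5.32 and 5.77 in YSGr and at 5.27, 5.12 and 5.23 in YSGnr, so that YSGnr lay below both other groups. Its differences were -0.01 in YSGr and -0.30 in YSGnr against SG and 0.29 between them (SE 0.15 each, adjusted p = 0.987, 0.231 and 0.187). Igfbp7 stood at 5.40, 5.22 and 5.14 in SG, at 4.82, 4.75 and 5.59 in YSGr and at 4.99, 5.73 and 5.47 in YSGnr. Its groups overlapped in every comparison, with differences of -0.20, 0.14 and -0.34 (SE 0.25 each, adjusted p = 0.685, 0.744 and 0.353). The 12 endothelial markers summed to 344 to 377 CPM in SG, 314 to 340.5 in YSGr and 212 to 299 in YSGnr; 3 of them fell in YSGnr and none was called in YSGr. Polr2b, which overlaps the Igfbp7 locus on the opposite strand, stood at 6.71 to 7.40 log2 CPM, above Igfbp7 in each library. How much exon the pair shares was not measured, and without strand only reads from a shared stretch could not be told apart.

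**Figure D3:**
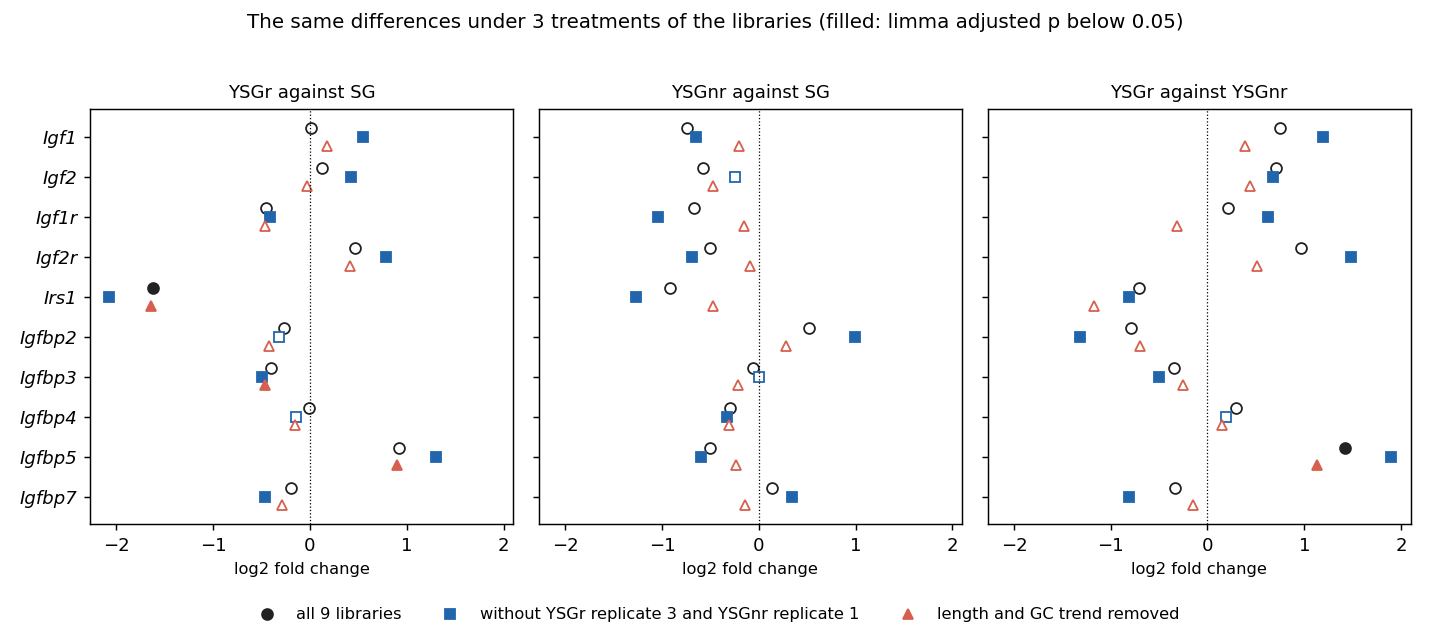
Log2 fold change (x axes) of the 10 genes (rows) in the 3 comparisons (panels) with all 9 libraries (circles), without YSGr replicate 3 and YSGnr replicate 1 (squares), and with a length and GC trend removed from each library (triangles); filled symbols had an adjusted p below 0.05. Squares are filled for 8, 8 and 9 of the 10 genes, and triangles for Irs1, Igfbp3 and Igfbp5 in YSGr against SG and for Igfbp5 in YSGr against YSGnr.

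With YSGr replicate 3 and YSGnr replicate 1 left out, 8 of the 10 genes were called in YSGr against SG, 8 in YSGnr against SG and 9 in YSGr against YSGnr. The same omission called 49.5%, 52.9% and 64.7% of all tested genes, and these libraries were known to stand apart when they were left out. It left YSGr and YSGnr differing throughout in Xist and Ddx3y, and in the length trend (rho 0.15 and 0.13 against -0.52 and -0.50). What goes with these cannot be told apart in that comparison from what goes with rescue. In YSGr replicates 1 and 2, Igf1 (0.54), Igf2 (0.42), Igf2r (0.79) and Igfbp5 (1.31 log2 units) were then higher than SG, and Irs1 (-2.07), Igfbp3 (-0.50), Igfbp7 (-0.47) and Igf1r (-0.41) lower. In YSGnr replicates 2 and 3, Igfbp2 (1.00) and Igfbp7 (0.34) were higher than SG, and Irs1 (-1.26), Igf1r (-1.04), Igf2r (-0.69), Igf1 (-0.65), Igfbp5 (-0.59) and Igfbp4 (-0.33) lower. The 2 genes that were higher in YSGnr have the shortest transcripts of the 10, 1.31 and 1.20 kb, and the 6 that were lower have longest transcripts of 3.83 to 11.41 kb; the part of length in these values was not tested.

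Other genes of the IGF axis were followed with a list of 21, of which 18 were in the table and all 18 were tested. In YSGr against SG 2 rose and 4 fell, in YSGnr against SG 2 rose and none fell, and in YSGr against YSGnr 1 was higher. That is 6, 2 and 1 of 18 genes, where 10.5%, 3.36% and 5.97% of all tested genes were called, so the last count is near the background. The list's median log2 fold change was -0.19, -0.37 and 0.15, against -0.02, -0.01 and 0.01 over all tested genes. The list was drawn up with earlier results of these data known.

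**Figure D4:**
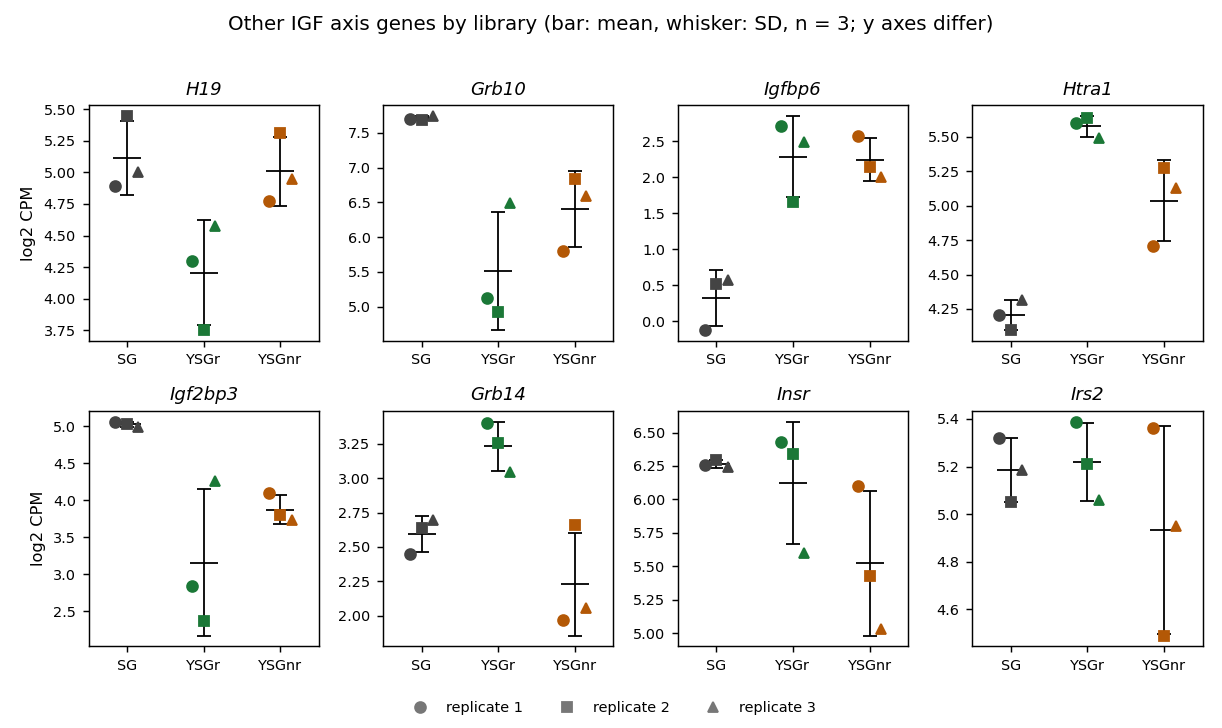
Level in log2 CPM (y axes, scaled per panel) of 8 other IGF axis genes in the 9 libraries by group (x axis); symbols mark replicate numbers, bars the mean and whiskers the SD (n = 3). Igfbp6 and Htra1 lie above SG and Grb10 and Igf2bp3 below SG in all 6 libraries with floxed Yap1.

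Igfbp6, a binding protein gene whose product prefers IGF2, stood at -0.13, 0.52 and 0.57 log2 CPM in SG, at 2.71, 1.65 and 2.49 in YSGr and at 2.57, 2.14 and 2.00 in YSGnr. All 6 libraries with floxed Yap1 were above all SG libraries, and it rose by 1.97 log2 units in YSGr (SE 0.34, adjusted p = 0.0101) and by 1.92 in YSGnr (SE 0.34, adjusted p = 0.0238). Fold changes at this low level are understated by the added count of the scale. The YSGr call did not hold without SG replicate 1 (adjusted p = 0.0517) and that in YSGnr without SG replicate 1, 2 or 3 (0.133, 0.0963 and 0.0911) or YSGnr replicate 2 or 3 (0.0624 and 0.0747). Htra1, the gene of a secreted serine protease that can cleave IGF binding proteins, stood at 4.21, 4.10 and 4.31 in SG, at 5.60, 5.63 and 5.49 in YSGr and at 4.71, 5.27 and 5.12 in YSGnr. It rose by 1.37 in YSGr (SE 0.16, adjusted p = 0.00268), a call that all 23 other processing settings kept, and YSGr replicate 3 lay with replicates 1 and 2. In YSGnr it rose by 0.83 (SE 0.16, adjusted p = 0.0328), which was lost without any 1 of the SG libraries (adjusted p = 0.128 to 0.154), YSGr replicate 1 or 2 (0.058 and 0.0587) or YSGnr replicate 2 or 3 (0.087 and 0.123), and with the replicate block (0.0518). Oligodendrocyte markers differed from SG in the same direction as Htra1: all 7 were called higher in YSGr and 2 of 7 in YSGnr. Their sum was 591.1 to 1137 CPM in SG, 2412 to 3785 in YSGr and 822.9 to 1826 in YSGnr. Within YSGnr the sum did not follow Htra1. Replicate 3, at 822.9 CPM, lay in the SG range with Htra1 at 5.12. Replicate 1, at 1667 CPM, had the lowest Htra1 of its group. Astrocyte and Bergmann glia markers did not rise so as a list. Of these 9, 2 were called higher in YSGr, Hopx by 1.42 (adjusted p = 0.00129) and Gfap by 1.71 (adjusted p = 0.0229). In YSGnr 1 was called higher and 1 lower. Called or not, 5 of the 9 lay above SG and 4 below in YSGr, and 2 above and 7 below in YSGnr. The sum of these 9 was 2792 to 2904 CPM in SG, 2342 to 3601 in YSGr and 1772 to 2436 in YSGnr, all genes of both lists were above the floor, and their part in the rise of Htra1 was not tested.

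Grb10 encodes an adaptor that binds the activated IGF1 and insulin receptors and dampens their signal, and it is imprinted like Igf2. It stood at 7.70, 7.69 and 7.74 log2 CPM in SG, at 5.12, 4.93 and 6.49 in YSGr and at 5.79, 6.84 and 6.59 in YSGnr. It was below SG in all 6 libraries with floxed Yap1 and fell by 2.20 in YSGr (4.59-fold lower, SE 0.40, adjusted p = 0.0124), while the difference in YSGnr was -1.30 (SE 0.40, adjusted p = 0.0926). This YSGr call did not hold without SG replicate 1, 2 or 3 (adjusted p = 0.0592, 0.0557 and 0.0511) or YSGr replicate 1 or 2 (0.0564 and 0.0556). Grb14, a related adaptor gene, was higher in YSGr than in YSGnr by 1.01 (SE 0.22, adjusted p = 0.0401), at 3.40, 3.25 and 3.04 against 1.97, 2.66 and 2.06. That call was lost without any 1 of the libraries other than YSGr replicate 3 and YSGnr replicate 1 (adjusted p = 0.0774 to 0.187), with the 6 libraries of these groups alone (0.161) and with median scaling (0.0515).

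H19, a non-coding RNA gene expressed from the maternal allele, lies 72.6 kb from Igf2 and shares its imprinting control region. It stood at 4.89, 5.45 and 5.002 log2 CPM in SG, at 4.29, 3.75 and 4.58 in YSGr and at 4.78, 5.31 and 4.95 in YSGnr. Every YSGr library was below every other library, and H19 fell by 0.91 in YSGr against SG (SE 0.25, adjusted p = 0.0464) while Igf2 differed by 0.13 in the same comparison. H19 differed by -0.10 in YSGnr (adjusted p = 0.811) and by -0.80 between YSGr and YSGnr (adjusted p = 0.0725). The fall was close to the threshold and was lost without SG replicate 1, 2 or 3 (adjusted p = 0.103, 0.174 and 0.115), YSGr replicate 1 or 2 (0.121 and 0.163) or YSGnr replicate 2 or 3 (0.0542 and 0.0674), and with the replicate block (0.0704), no filter (0.0512), no trend (0.0617) or the 6 libraries alone (0.0595).

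Igf2os, an antisense gene over the Igf2 locus, was chosen after its values were seen. It stood at 1.23, 1.61 and 1.23 log2 CPM in SG, at 0.02, -0.54 and -0.02 in YSGr and at -0.74, -0.88 and -0.70 in YSGnr, with no overlap between SG and either group. It fell by 1.53 in YSGr (SE 0.30, adjusted p = 0.0173) and by 2.13 in YSGnr (SE 0.30, adjusted p = 0.013). The calls were lost without SG replicate 1, 2 or 3 (adjusted p = 0.0705 to 0.0919 in YSGr and 0.0867 to 0.0969 in YSGnr), and that in YSGr also without YSGr replicate 1 or 2 (0.0559 and 0.0792). Its level is far below that of Igf2. Reads from a stretch shared by the overlapping genes could not be told apart without strand, and the extent of shared exon was not measured.

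Of the RNA-binding protein genes that take their name from Igf2 mRNA, Igf2bp3 fell in YSGr by 1.87 log2 units (SE 0.40, adjusted p = 0.0212), at 2.85, 2.36 and 4.27 against 5.06, 5.03 and 4.99 in SG. Igf2bp1 fell in YSGr as well (adjusted p = 0.0336), at -0.66 and -0.56 in replicates 1 and 2 and 3.58 in replicate 3 against 4.49 to 4.82 in SG. Both genes were below SG in all 3 YSGnr libraries, with differences of -1.15 (adjusted p = 0.121) and -0.95 (adjusted p = 0.538). The YSGr calls were lost without SG replicate 1, 2 or 3 (adjusted p = 0.0743 to 0.0891 for Igf2bp3 and 0.0983 to 0.116 for Igf2bp1) or YSGr replicate 1 or 2 (0.0888 and 0.0762, and 0.124 and 0.131). The call of Igf2bp1 was also lost without YSGnr replicate 2 or 3 (0.054 and 0.0505) and with the 6 libraries of the comparison alone (0.0644).

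The insulin receptor gene Insr and the second docking protein gene Irs2 were not called. Insr stood at 6.25, 6.30 and 6.25 log2 CPM in SG, at 6.43, 6.34 and 5.60 in YSGr and at 6.10, 5.43 and 5.03 in YSGnr, and differed by -0.14 in YSGr (adjusted p = 0.81) and -0.75 in YSGnr (adjusted p = 0.151). Its longest transcript is 9.36 kb, and with the length and GC trend removed the difference in YSGnr was -0.25 (adjusted p = 0.309). Irs2 stood at 5.32, 5.05 and 5.19 in SG, at 5.39, 5.21 and 5.06 in YSGr and at 5.36, 4.49 and 4.95 in YSGnr. It differed from SG by 0.04 in YSGr (95% interval -0.44 to 0.51, adjusted p = 0.939), where Irs1 fell by 1.62, and by -0.25 in YSGnr (adjusted p = 0.466).

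Downstream of the receptors, 24 PI3K, AKT and mTOR pathway genes were tested. In YSGr against SG 1 rose and 1 fell, in YSGnr against SG 1 rose and 1 fell, and in YSGr against YSGnr 1 was higher, with list medians of 0.01, -0.31 and 0.31. These 2, 2 and 1 of 24 genes stand against 10.5%, 3.36% and 5.97% of all tested genes, so the counts of YSGr against SG and of YSGr against YSGnr are no higher than the background. Foxo1, a transcription factor gene whose product AKT keeps out of the nucleus, fell by 0.58 in YSGr (SE 0.14, adjusted p = 0.0299) and by 0.86 in YSGnr (SE 0.14, adjusted p = 0.0181). The related Foxo3 was higher in YSGr than in YSGnr by 0.88 (SE 0.22, adjusted p = 0.0488). Pik3r2, a regulatory subunit gene of PI3K, rose by 0.56 in YSGr (SE 0.11, adjusted p = 0.0181), and the kinase gene Akt2 rose by 0.80 in YSGnr (SE 0.18, adjusted p = 0.0453). The calls in YSGr, of Foxo1 and Pik3r2, were lost without any 1 of the SG libraries (adjusted p = 0.0757 to 0.131) or YSGr replicate 1 or 2 (0.0747 to 0.13), and with the length and GC trend removed (0.085 and 0.0674), and that of Foxo1 also with the replicate block (0.0625). Those in YSGnr, of Foxo1 and Akt2, were lost without any 1 of the SG libraries (0.0911 to 0.188) or YSGnr replicate 2 or 3 (0.0523 to 0.127). Akt2 was also lost without YSGr replicate 1 or 2 (0.073 and 0.0724) or with no trend (0.0576), and Foxo1 in YSGnr with the trend removed (0.226). Foxo3 was lost without any 1 of the libraries other than YSGr replicate 3 and YSGnr replicate 1 (0.0893 to 0.205), and it held in 11 of the 23 other processing settings.

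The genes whose levels over the 9 libraries were most like those of a member were ranked by Pearson r among the 10445 tested genes whose mean over all libraries was 3 log2 CPM or more, as a description. Irs1 was most like Whrn (0.989), Dock1 (0.988) and Bcl11a (0.988), and Igfbp5 most like Pitpnc1 (0.988), Nol4l (0.985) and Cry2 (0.985). Igf1 was most like Timp3 (0.989), Acbd5 (0.989) and Rab30 (0.976), and Igf2 most like AI597479 (0.970), Klhl5 (0.966) and Ppm1b (0.961). The points share 9 libraries in 3 groups, of which YSGr replicates 1 and 2 stand apart from the rest.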

How the data were processed

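Bulk RNA-seq of tumour tissue was read from the authors' deposited table of log2 CPM (a gene's reads scaled by the size of the library) for 9 libraries in 3 groups of 3. BGI sequenced the RNA on DNBseq, per the labels' protocols. In the submitters' processing notes the tools are edgeR, RSEM, Picard, Bowtie2 and Trimmomatic, without versions, and the build is mm10. No source used here gives the annotation, gene filter or strand setting. The deposited log2 values share a lowest value of -3.52, which implies an added count of 2.00 reads on average. Between 60.6% and 69.5% of back-calculated low values were whole within 0.02 reads, so the test was run on the log2 scale, where an added count understates the change of low genes.

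Groups were compared with limma 3.58.1 (R 4.3.3) in a group-means model over the 9 libraries with a mean-variance trend, two-sided, for genes above 0 log2 CPM in at least 3 libraries. P-values were adjusted over all tested genes (Benjamini-Hochberg), and a call is an adjusted p below 0.05. The steps were tested on simulated data. Lengths, GC and positions came from GENCODE M21 (GRCm38, the assembly of mm10), where 95.6% of symbols matched, and promoter windows from RefSeq (GRCm38.p6). Marker sums add CPM over a list's genes.

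All 10 genes are named, up to 6 called genes of the other IGF axis list (smallest adjusted p first) plus Insr, Irs2, H19 and Grb10, up to 4 called PI3K pathway genes, and the 3 most similar genes of each called member and of Igf1 and Igf2. A term for high Xist (above 0 log2 CPM) was added to the model as an alternative chosen after seeing the data. The members and lists were chosen with earlier results of these data known. No replicates were merged, since every pair differed beyond sampling noise (median chi-square per gene at least 1.34, against 0.45).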

Additional observations from a re-analysis of the deposited data

How the results depend on the processing

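Irs1 in YSGr against SG and Igfbp5 in YSGr against YSGnr kept their direction under all 23 other processing settings and their call under 18 and 14, the term for high Xist not counted. Some of these settings, such as another filter or the replicate block, leave the fold change as it was. So does leaving out a library outside the comparison. Such settings bear on the call and not on the direction. The number of the 10 genes called in YSGr against SG was 1 and became 9 with array weights (whose fit stopped before convergence), 8 without YSGr replicate 3 and YSGnr replicate 1, 3 with the length and GC trend removed, and 2 with that trend and the replicate block. In YSGnr against SG it was 0 and became 8, 8 and, with the 6 libraries alone, 1. In YSGr against YSGnr it was 1 and became 9 with array weights, 9 without the 2 libraries, 2 with voom, and 0 with median scaling or the 6 libraries alone. With each library left out in turn it ran from 0 to 5, 0 to 3 and 0 to 7.

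All genes called in YSGr against SG numbered 1608, 9661 with array weights and 7556 without the 2 libraries (328 to 4257 with each library left out). In YSGnr against SG they numbered 512 (181 higher, 331 lower), 1190 with the 6 libraries, 7316 with array weights, 8074 without the 2 libraries, 341 with the replicate block, 303 with block and trend removal, and 851 with voom (19 to 3332). In YSGr against YSGnr they numbered 910 (776 higher, 134 lower), 316 with median scaling, 0 with the 6 libraries, 568 with no trend, 9967 with array weights, 9867 without the 2 libraries, 1758 with the trend removed, 1538 with block and trend removal, and 1801 with voom (1 to 6528). With the length and GC trend removed the share of higher calls went from 35.4% to 52.1% in YSGnr against SG and from 85.3% to 55.1% in YSGr against YSGnr. With array weights it was between 48.6% and 50.1%, and without the 2 libraries 47.3%, 50.3% and 49.4%, against 62.4% at first in YSGr against SG. The cause of these shifts was not tested.

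Only differences that were not called reversed. Against SG in YSGr these were Igfbp4 (0.0041 with quantile normalization; -0.14 to 0.083 with each library left out), Igf1 (-0.30 to 0.54) and Igf2 (-0.033 with the trend removed, with or without the block; -0.10 to 0.42). In YSGnr they were Igfbp3 (0.0067 with array weights, 0.0015 without the 2 libraries; -0.14 to 0.0015) and Igfbp7 (-0.14 with the trend removed, with or without the block; -0.026 to 0.34). Between YSGr and YSGnr it was Igf1r (-0.32 with the trend removed, with or without the block; -0.058 to 0.58). With the term for high Xist, chosen after seeing the data and resting on YSGnr replicate 1, 3, 3 and 0 of the 10 genes and 1426, 3335 and 406 of all genes were called. Differences that reversed with it were Igf2r (-0.093), Igfbp2 (1.16) and Igfbp7 (0.41) in YSGr against SG, Igfbp3 (0.0015) in YSGnr against SG, and Igf1r (-0.53), Igfbp2 (0.16) and Igfbp7 (0.068) in YSGr against YSGnr. Same-numbered libraries deviated together with r between -0.23 and 0.24, and libraries of unlike number with r between -0.25 and 0.23. The numbers thus showed no pairing on this measure, which cannot exclude it where single libraries stand apart from their group. The replicate block changed no call of the 10 genes.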
